A study of Drosophila melanogaster
Mus musculus with 36 samples.

Results

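The 18 libraries described here are those made after oxidation from a dilution series of fly RNA in mouse RNA, and they are 18 of the 36 libraries of the study. They were chosen by their labels alone (treatment ox+ at every ratio), with no measured value involved. Each mixture joined RNA from S2-S cells, a cultured embryonic line of Drosophila melanogaster whose genotype is labelled DmHen1-KO; FLAG-MYC-AthHEN1, with RNA from 1 clone, AN3-12, of mouse embryonic stem (ES) cells. The fly cells therefore lack their own Hen1 and express a tagged HEN1 of Arabidopsis thaliana in every library, and the promoter that drives it is not given in the sources used here. The fly to mouse ratios were 1:1, 1:10, 1:100, 1:1000, 1:10000 and 1:100000, with 3 oxidised libraries at each ratio (sodium periodate) and 3 untreated libraries from the same mixtures. The untreated libraries serve only as the reference for the oxidised ones.

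HEN1 methylates the 3′ terminal nucleotide of a small RNA at its 2′ hydroxyl group. Periodate oxidises the free 2′,3′ diol at an unmethylated 3′ end and blocks ligation of the 3′ adapter, so methylated RNAs are favoured in the library. Animal microRNAs (miRNAs) are mostly unmethylated, whereas the plant enzyme methylates both strands of miRNA duplexes. A miRNA hairpin yields a 5p and a 3p arm, of which one usually accumulates as the guide strand, and the arms are counted here as separate entries.

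The 3 libraries of a group come from 3 sets, here numbered 1 to 3. Set 1 carries no number in its labels, used 25 µg of mouse RNA per mixture and was sequenced on a HiSeq2500, while for sets 2 and 3 each mixture came to 50 µg of total RNA and a HiSeq2000 was used. By the labels set 1 is thus a batch apart from sets 2 and 3, which the labels separate only by replicate number. The labels do not say that sets were separate cultures, so p-values measure the spread between these libraries, which may be technical. RNA was mixed by mass, so fewer fly cells and less miRNA per fly cell cannot be told apart.

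The oxidised libraries held 3654 to 1312983.5 counts each, against 326776.5 to 16619583 in the untreated ones. Fly counts in oxidised libraries of sets 1, 2 and 3 were 275, 2459.7 and 1327 at 1:100000, against 1165619.3, 30479.3 and 320116.8 at 1:1. Set 1 fell lowest, with 849 fly counts at 1:1000 and 624 at 1:10000. The number of fly entries with at least 3 counts, the detection floor used here, was 25 to 53 at 1:100000 and 87 to 176 at 1:1. Those 3 counts correspond to a share of 0.000257% of fly counts in the deepest oxidised library and 1.09% in the shallowest, so rare arms cannot be followed to the end of the series. Such floors and the binomial intervals below cover counting error only. Of 372 fly entries, 289 had a count in some oxidised library and 83 had none. Fly miRNAs known from S2 cells (83 entries) made up 98.5% ± 0.0701 of oxidised fly counts at 1:1 (SD, n = 3). Mouse ES cells express mainly one large cluster, mir-290, whose entries made up 68.9% of mouse counts in untreated 1:1 libraries (67.2% to 69.8%). The mir-302 cluster, also taken as an ES cell marker, held only 0.0462% of those counts, and listed miRNAs of other mouse tissues held 1.55%. The lists were chosen with earlier results of these data known, so their shares are no independent check of the labelled cell types. Hen1 itself is not measured in a miRNA table.

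The oxidised 1:1000 libraries of sets 2 and 3 stood apart from their neighbours in the series. dme-mir-34-5p held 0.453% and 0.162% of fly counts there, against 1.19% to 3.66% in the other 16 oxidised libraries. dme-mir-282-3p held 13.4% and 15.6%, against 2.76% to 8.95% elsewhere. Counts of the fly trend fits are given with and without these libraries below. The comparison of 1:1000 with 1:1 was fitted only with them.

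At 1:1 the oxidised fly profile was spread over many arms. The 10 most abundant arms of each library held 65.4%, 61.9% and 58.7% of fly counts in sets 1, 2 and 3. The leading arm, dme-mir-2a-2-3p, comes from a family that represses pro-apoptotic genes in the fly and held 11.9%, 14.1% and 11.1%. dme-bantam-3p, the guide of the growth-promoting bantam miRNA, held 10.2%, 10.7% and 10.4%, and its 3 libraries lay within 1 percentage point. dme-mir-33-5p, from an intron of the fly sterol regulator SREBP, held 12.2%, 8.72% and 7.10%. dme-mir-282-3p held 7.42%, 6.32% and 6.21%, and dme-mir-8-3p, a regulator of growth and insulin signalling in the fly, held 6.58%, 4.85% and 4.30%.

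The untreated 1:1 libraries of the same mixtures were dominated by 1 arm. dme-bantam-3p averaged 10.4% ± 0.21 in oxidised 1:1 libraries and 42.8% ± 8.4 in untreated 1:1 libraries (SD, n = 3 each), with no overlap. dme-mir-2a-2-3p averaged 12.3% ± 1.5 in oxidised and 3.80% ± 0.13 in untreated libraries. dme-mir-33-5p averaged 9.33% ± 2.6 in oxidised and 2.86% ± 0.46 in untreated libraries, and dme-mir-282-3p 6.65% ± 0.67 and 1.48% ± 0.64. Oxidation thus went with a flatter profile at 1:1, in which the leading untreated arm held a smaller share.

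From 1:1 to 1:100 the oxidised profile changed little, and it shifted over the last 3 dilutions. Each arm's share of fly counts was fitted against the number of 10-fold dilutions with edgeR's quasi-likelihood test, so that a slope is a log2 change of share per 10-fold dilution. After a filter on low counts, 77 fly arms were tested and 25 (32.5%) were called at a Benjamini-Hochberg adjusted p under 0.05. Of these, 9 (11.7%) rose and 16 (20.8%) fell, and the median slope of all 77 was -0.14. At an unadjusted p under 0.05 there were 36 arms, 10 up and 26 down.

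The 9 arms that rose summed to 14.9% ± 0.19 of fly counts in the 1:1 libraries and stayed near it, with 16.1% ± 1.1 at 1:10 and 16.0% ± 0.77 at 1:100 (SD, n = 3 each). Their sum was 22.7% ± 4.4 at 1:1000, then 36.8% ± 11.2 at 1:10000, and 46.4% ± 14.3 in the most dilute group. The 16 that fell summed to 13.5% ± 7.7 at 1:100000 and 33.8% ± 3.9 at 1:1. The remaining 52 tested arms held 39.3% at 1:100000 and 50.9% at 1:1, and the 295 untested entries held 0.777% and 0.388%. These sums describe arms already sorted by the test. In untreated 1:1 libraries the same 9 and 16 arms held 51.4% and 11.7%.

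**Figure D1:**
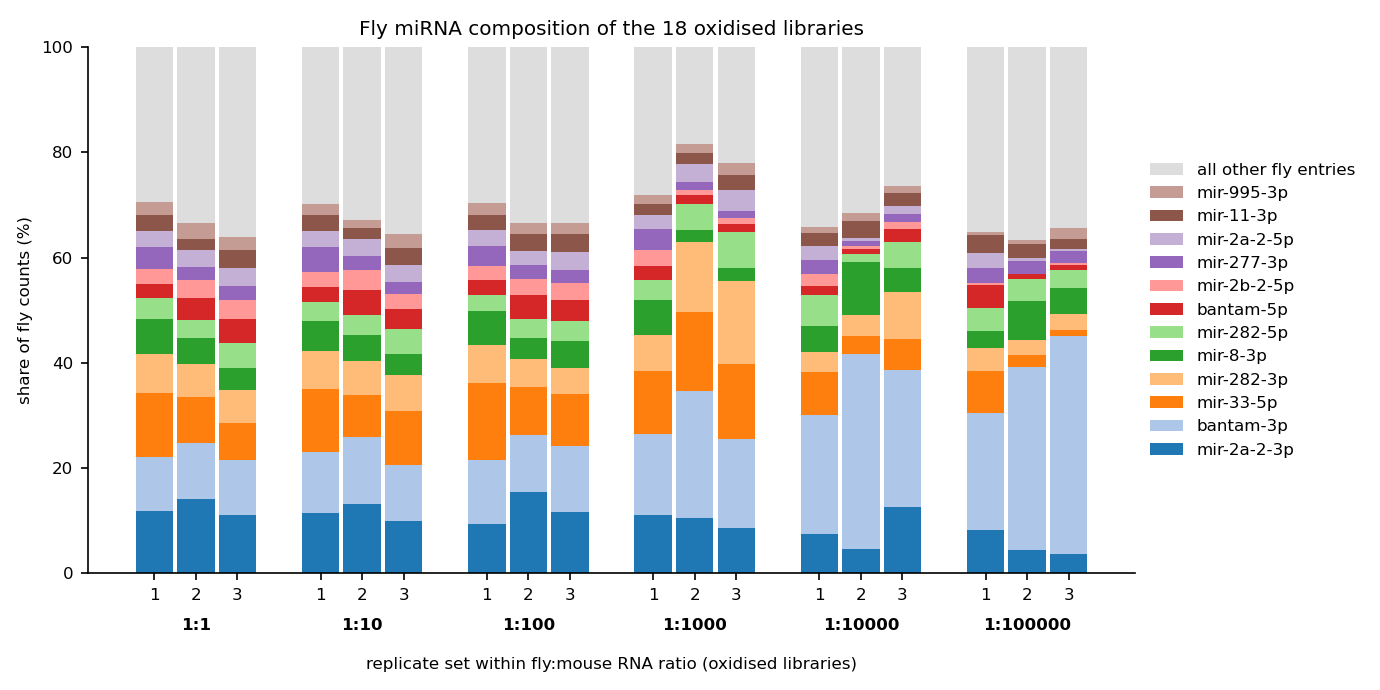
Stacked share of fly counts (percent) in each of the 18 oxidised libraries, grouped by fly to mouse ratio, for the 12 arms most abundant at 1:1 and all other fly entries. dme-bantam-3p takes 22.2% to 41.4% at 1:100000, against 10.2% to 10.7% at 1:1, and the 1:1 to 1:100 libraries look alike.

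dme-bantam-3p had the largest gain in percentage points. In sets 1, 2 and 3 it held 10.2%, 10.7% and 10.4% at 1:1, 11.5%, 12.8% and 10.7% at 1:10, and 12.1%, 10.9% and 12.5% at 1:100. It then held 15.4%, 24.1% and 16.8% at 1:1000, 22.6%, 37.0% and 25.9% at 1:10000, and 22.2%, 34.9% and 41.4% at 1:100000. Every library at 1:1000 and beyond lay above every library at 1:1 to 1:100. In the shallowest library, set 1 at 1:100000, its share rested on 61 counts, with a 95% Wilson interval of 17.7% to 27.5%. The slope was 0.36 ± 0.049 (SE; edgeR adjusted p = 2.94e-06), and within sets it was 0.25, 0.41 and 0.40. The means at 1:100000 (32.8% ± 9.8) and 1:10000 (28.5% ± 7.5) lay within 1 SD of each other. At 1:100000 the share still lay below the untreated 1:1 mean of 42.8%.

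dme-mir-2a-1-3p, another mir-2 family arm, was far rarer and rose with it. It held 0.323%, 0.304% and 0.291% at 1:1, 0.290%, 0.333% and 0.249% at 1:100, 1.04%, 1.06% and 0.617% at 1:10000, and 1.27%, 1.92% and 1.47% at 1:100000. The 1:100000 libraries did not overlap with those at 1:1. In set 1 at 1:100000 its 1.27% lay close to the floor of 3 counts, which was 1.09% in that library. The slope of dme-mir-2a-1-3p was 0.47 ± 0.077 (SE; edgeR adjusted p = 5.89e-05), positive in all 3 sets at 0.21, 0.53 and 0.42. The 1:100000 mean of 1.55% was close to the untreated 1:1 mean of 1.67% ± 0.19. These 2 arms kept their rise past the threshold in every alternative tried, each left-out library included. No alternative covers how reads were shared between dme-mir-2a-1-3p and dme-mir-2a-2-3p. Their sum held 12.6% ± 1.6 at 1:1 and 6.99% ± 2.2 at 1:100000, so the separate rise of dme-mir-2a-1-3p is uncertain.

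The other arms that rose are less firm. dme-mir-276a-3p, which acts in fly memory formation, held 2.18%, 3.09% and 3.01% at 1:100000, against 0.985%, 0.758% and 0.951% at 1:1 (slope 0.33, edgeR adjusted p = 0.00289; 0.04, 0.50 and 0.27 within sets). dme-mir-317-3p held 1.82%, 1.22% and 3.09% at 1:100000, against 0.964%, 0.653% and 0.773% at 1:1 (slope 0.28, edgeR adjusted p = 0.0205; 0.15, 0.23 and 0.39 within sets). dme-mir-33-3p held 2.18%, 9.03% and 3.92% at 1:100000, against 1.75%, 0.988% and 1.67% at 1:1, with set slopes of -0.10, 0.57 and 0.18. dme-mir-275-3p held 0.364%, 2.24% and 3.39% at 1:100000, against 0.740%, 1.23% and 0.756% at 1:1, and its set slopes were -0.04, 0.28 and 0.37. With set as a replicate block its slope was 0.24 (edgeR adjusted p = 0.0748). Its 0.364% in set 1 at 1:100000 lay below the floor of 3 counts in that library (1.09%). For the last pair, the slope of set 1 was negative. The remaining 3, dme-mir-9b-3p, dme-mir-184-3p and dme-mir-1013-3p, rested on 364, 732 and 62 counts summed over all 18 libraries, and each was at 0 in at least 1 library of the 1:1000 group. Against 1:1, dme-mir-9b-3p lay 1.84 ± 0.63 higher at 1:1000 and 3.58 ± 0.62 higher at the next dilution (log2, SE; edgeR). At 1:100000 its fitted value was -7.12 ± 6.48, with an interval of -20.9 to 6.63. A rise of this arm to the end of the series was thus not shown.

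**Figure D2:**
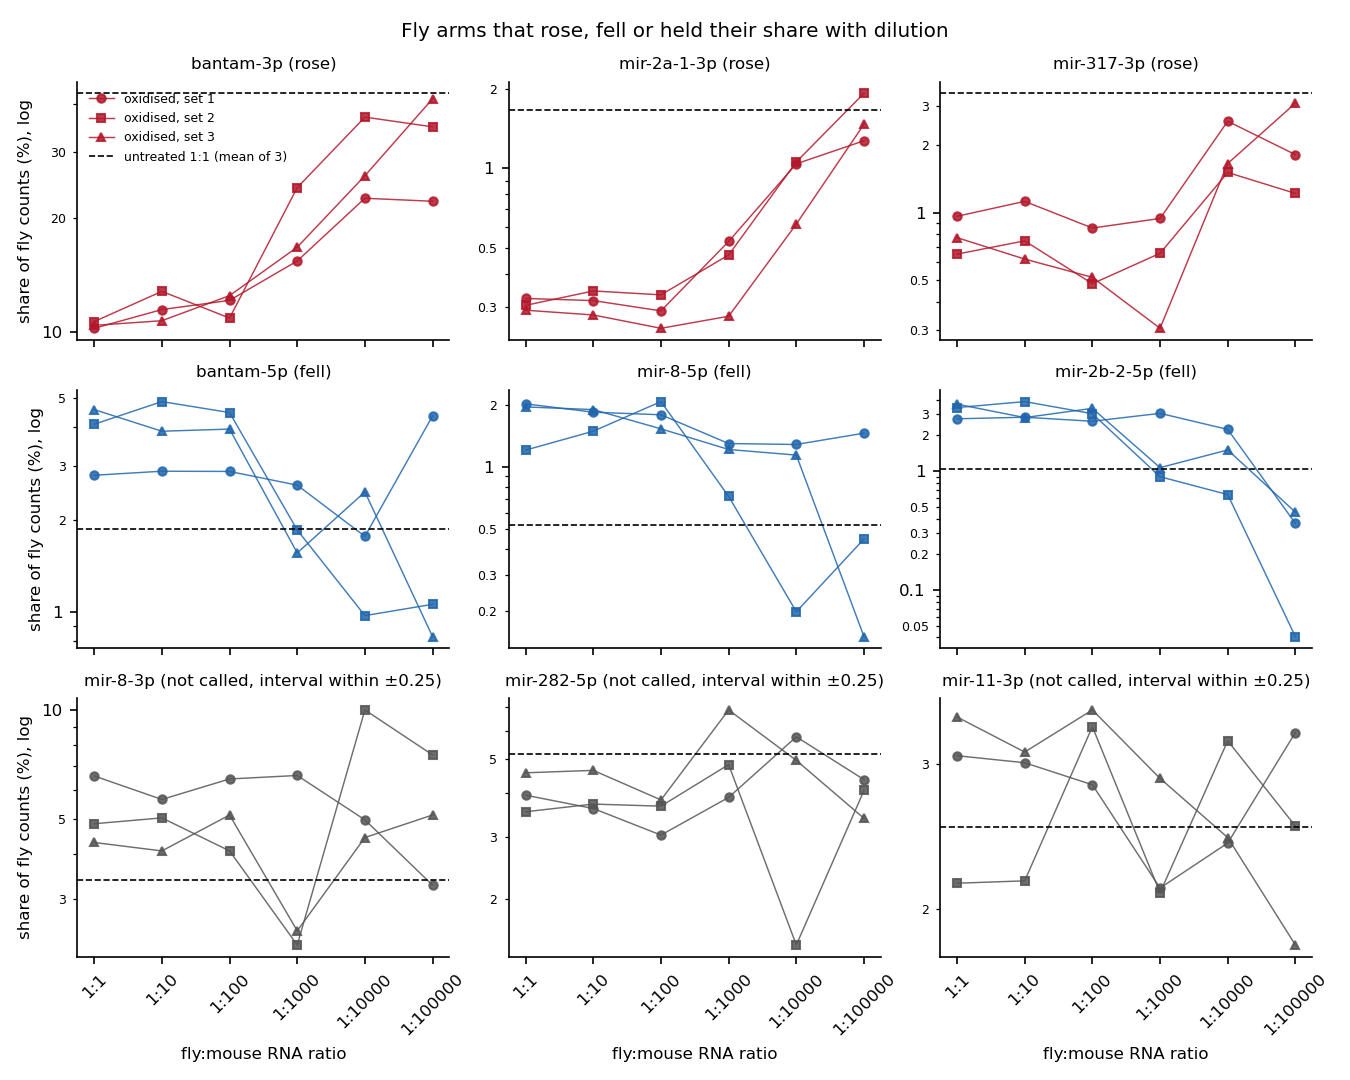
Share of fly counts (percent, log axis) of 9 fly arms in each oxidised library against the fly to mouse ratio, 1 line per set, with the mean of the 3 untreated 1:1 libraries as a dashed line. dme-bantam-3p and dme-mir-2a-1-3p end above their 1:1 level in all 3 sets and dme-mir-2b-2-5p ends below it in all 3, while the 3 arms of the bottom row scatter around their 1:1 level.

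Among the arms that fell, dme-mir-2b-2-5p had the steepest log2 slope of those above 1% at 1:1. It held 2.76%, 3.42% and 3.66% at 1:1, 2.63%, 3.04% and 3.37% at 1:100, 3.06%, 0.898% and 1.07% at 1:1000, 2.24%, 0.636% and 1.51% at 1:10000, and 0.364%, 0.0407% and 0.452% at 1:100000. The slope was -0.54 ± 0.12 (SE; edgeR adjusted p = 0.00221), and within sets -0.11, -0.97 and -0.50. Set 1 thus held its share until 1:10000 and lost it only in its last library, where the arm had under 3 counts. The untreated 1:1 mean was 1.05% ± 0.29.

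dme-mir-2a-2-3p, the leading arm at 1:1, held 8.18%, 4.40% and 3.73% at 1:100000, and no library there reached the lowest value at 1:1 (11.1%). Its slope was -0.22 ± 0.065 (SE; edgeR adjusted p = 0.0189), and -0.12, -0.38 and -0.15 within sets. Summed with dme-mir-2a-1-3p, whose mature strand belongs to the same family, it held 6.99% ± 2.2 at 1:100000 and 12.6% ± 1.6 at 1:1. How reads that match both entries were shared out is not given in the sources used here, so their separate values are uncertain.

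dme-bantam-5p, the partner strand of the bantam guide, held 4.36%, 1.06% and 0.829% at 1:100000, against 2.79%, 4.10% and 4.58% at 1:1. Its slope was -0.30 ± 0.086 (SE; edgeR adjusted p = 0.0155), and the sets disagreed at -0.00, -0.53 and -0.41. dme-mir-2a-1-5p averaged 0.135% at 1:10000 and 0.653% ± 0.15 at 1:1 (slope -0.57 ± 0.13, edgeR adjusted p = 0.00221). dme-mir-252-5p averaged 0.627% ± 0.41 at 1:100000 and 2.25% ± 1.7 at 1:1, but in set 1 it held only 0.327% at the start. dme-mir-995-3p held 0.727%, 0.813% and 2.19% at 1:100000, against 2.49%, 2.98% and 2.62% at 1:1, with slopes of -0.20, -0.27 and -0.12 within sets. dme-mir-996-5p had no count in any 1:100000 library, where the floor of 3 counts allows up to 1.09%, 0.122% and 0.226%, and averaged 0.258% ± 0.064 at 1:1.

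Set 1 carried less of the loss than the other sets. Of the 16 arms that fell, 10, 16 and 16 had a negative slope in sets 1, 2 and 3, with medians of -0.02, -0.68 and -0.49. Over all 77 tested arms the same sets had 35, 49 and 51 negative slopes. Of the 9 that rose, 7, 9 and 8 had a positive slope, with medians of 0.15, 0.53 and 0.39. Fitted without set 2, 4 arms rose and 2 fell, and without set 3, 5 rose and 3 fell. The 1:100000 library of set 2 by itself decided most falls, since 2 arms fell when it was left out. Without all 3 libraries at 1:100000, 3 arms rose (dme-mir-9b-3p, dme-bantam-3p and dme-mir-2a-1-3p) and 5 fell (dme-mir-995-5p, dme-mir-2b-2-5p, dme-mir-1012-3p, dme-bantam-5p and dme-mir-2a-1-5p). Without the 1:1000 libraries of sets 2 and 3, 16 rose and 13 fell, among them all 9 that rose and 12 of the 16 that fell with every library included.

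Arms without a trend in either direction are described by the interval of their slope. For 12 of the 77 arms the 95% interval lay within ±0.25 log2 units per 10-fold dilution, a band set after the data were seen. The band does not mean no change. The slopes of dme-mir-2a-2-3p (-0.22) and dme-mir-995-3p (-0.21), called as falling, lay inside it, though their intervals did not. dme-mir-8-3p held 3.27%, 7.52% and 5.12% at 1:100000, against 6.58%, 4.85% and 4.30% at 1:1, and its slope was 0.03 with an interval of -0.11 to 0.18. dme-mir-282-5p held 4.36%, 4.07% and 3.39% at 1:100000, against 3.94%, 3.54% and 4.56% at 1:1, with an interval of -0.12 to 0.15. dme-mir-11-3p, from an intron of the cell cycle regulator E2f1, held 3.27%, 2.52% and 1.81% at 1:100000, against 3.07%, 2.15% and 3.42% at 1:1, with an interval of -0.16 to 0.07. The groups overlapped for each of these 3. The others were dme-mir-13b-1-3p, dme-mir-13b-2-3p, dme-mir-305-5p, dme-mir-965-3p, dme-mir-996-3p, dme-mir-9c-5p, dme-mir-14-3p and the pair dme-mir-276b-5p and dme-mir-276a-5p, whose counts were identical in all libraries. A straight line can hide a dip in between. Against 1:1, dme-mir-996-3p lay at -1.45 and dme-mir-965-3p at -0.74 at 1:100, and dme-mir-305-5p at -1.22 at 1:1000 (log2, edgeR adjusted p = 0.605, 0.987 and 0.106). Their unadjusted p-values were 0.00786, 0.0459 and 0.00825.

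dme-mir-33-5p and dme-mir-282-3p were not called, yet their shares moved widely. dme-mir-33-5p held 8.0%, 2.20% and 1.06% at 1:100000 and 12.0%, 15.0% and 14.3% at 1:1000 (slope -0.23, interval -0.46 to -0.01, edgeR adjusted p = 0.0958). dme-mir-282-3p held 4.36%, 2.76% and 3.01% at 1:100000 and 6.83%, 13.4% and 15.6% at 1:1000 (slope -0.10, edgeR adjusted p = 0.43). Both peaked in the 1:1000 libraries of sets 2 and 3, which a straight line over dilutions does not capture.

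Gains fell on 3p arms and losses mostly on 5p arms. Of 35 tested 5p arms, 0 rose and 12 fell, with a median slope of -0.285 (edgeR; 1 of them upward at an unadjusted p under 0.05). Of 42 tested 3p arms, 9 rose and 4 fell, with a median of 0.00. Both arms were tested for 29 hairpins, and in these the arm with more untreated 1:1 counts can be set against the other. The more abundant arms counted 5 that rose and 4 that fell, with a median slope of -0.05. The less abundant arms counted 2 that rose (dme-mir-33-3p and dme-mir-184-3p) and 11 that fell, with a median of -0.36. The place of dme-mir-184-3p among them rests on its fly entry alone. In untreated 1:1 libraries the mouse entry mmu-mir-184-3p averaged 105 per 1000 fly counts, and the part of fly RNA in it was not tested. The less abundant arm had the lower slope in 22 of 29 hairpins. Over all 77 arms, 49 slopes were below 0.

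The strand ratio within single hairpins gives the same counts in another form and is no separate test of the slopes. The bantam 3p to 5p ratio over summed oxidised counts was 3.22, 3.42, 3.44, 11.9, 24.7 and 30.0 from 1:1 to 1:100000, against 25.4 in untreated 1:1 libraries. In the single 1:100000 libraries it was 5.08, 33.0 and 49.9, and set 1 lay nearest to its 1:1 value of 3.67. For dme-mir-2a-1 the same ratio was 0.545 at 1:1, 0.514 at 1:100, 1.02 at 1:1000 and 9.05 at 1:10000, against 8.51 in untreated 1:1 libraries. The 3p counts in this ratio depend on how reads were shared with dme-mir-2a-2-3p, which is not given in the sources used here. For dme-mir-8 the sets went different ways. Set 1 had 2.25 at 1:100000 and 3.26 at 1:1, set 2 had 16.8 and 4.02, and set 3 had no value at 1:100000 and 2.21 at 1:1.

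dme-mir-33 ran the other way. Its 5p to 3p ratio was 6.44, 6.75, 8.50, 8.41, 2.24 and 0.321 along the series, against 2.45 in untreated 1:1 libraries, so at 1:100000 the arm that was rarer in untreated libraries exceeded the other in summed counts. This reversal came from sets 2 and 3, at 0.243 and 0.269, while set 1 had 3.67. dme-mir-282 had a 5p to 3p ratio of 1.31 at 1:100000 and 0.569 at 1:1, against 3.84 in untreated 1:1 libraries.

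**Figure D3:**
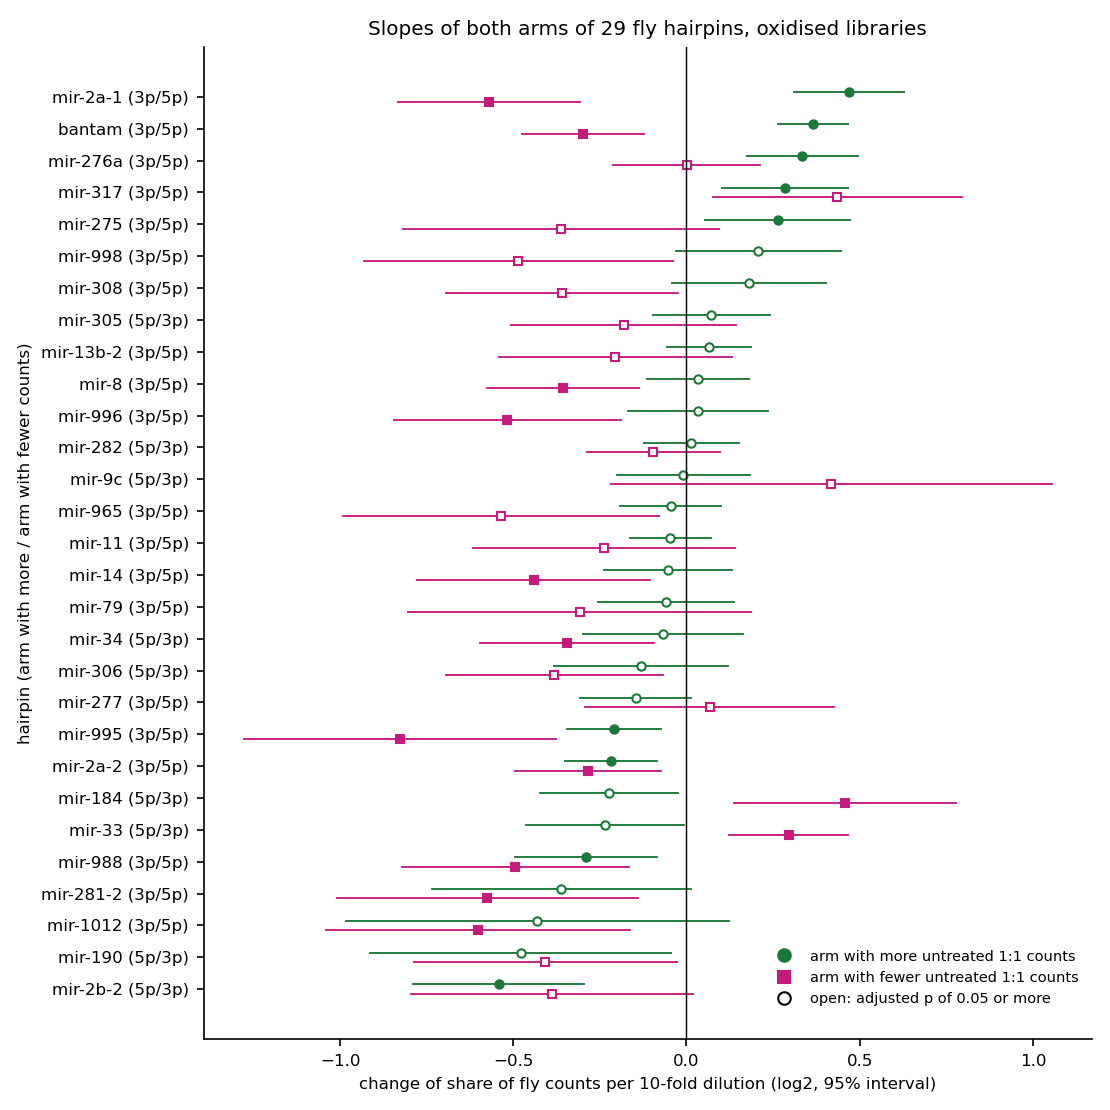
Slope of the share of fly counts (log2 per 10-fold dilution, bars are 95% intervals) of both arms of the 29 fly hairpins with both arms tested, 1 hairpin per row. The arm with fewer untreated 1:1 counts (squares) lies left of the other arm (circles) in 22 of 29 hairpins, and dme-mir-2a-1 shows the widest gap at the top.

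In each family or cluster list below, at most 1 listed arm rose and 1 fell. The mir-2 and mir-13 list holds 3p arms only. Outside it, the 5p arms dme-mir-2a-1-5p, dme-mir-2a-2-5p and dme-mir-2b-2-5p of these hairpins also fell (slopes -0.57, -0.285 and -0.54). Of 6 tested 3p arms of the mir-2 and mir-13 hairpins, 1 rose (dme-mir-2a-1-3p) and 1 fell (dme-mir-2a-2-3p), with a median slope of -0.07. Of 6 arms of the mir-277, mir-34 and mir-317 cluster, 1 rose (dme-mir-317-3p) and 1 fell (dme-mir-34-3p). Of 4 arms of the mir-275 and mir-305 cluster, 1 rose (dme-mir-275-3p) and 0 fell. Of 7 tested arms of the mir-9 family and its cluster mates, 1 rose (dme-mir-9b-3p) and 0 fell. That rise is of the fitted slope, and the arm's fitted value at 1:100000 was -7.12 (log2) against 1:1. Among mirtrons, which are spliced from short introns, 5 of 25 entries were tested, of which 1 rose (dme-mir-1013-3p) and 1 fell (dme-mir-1012-5p). The S2 cell list had 64 tested arms, 8 that rose and 14 that fell, with a median of -0.09. Its members still made up 97.7% of fly counts at 1:100000, so the shift took place among S2 cell miRNAs. Each of these counts is read against a background of 11.7% up and 20.8% down.

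Compared step by step with 1:1, the change began late. At 1:10, 0 of 77 arms differed (0% called; 0 at an unadjusted p under 0.05 and 0 with DESeq2). At 1:100, 0 differed (0% called; 3 at an unadjusted p under 0.05 and 0 with DESeq2). At 1:1000, 3 arms (3.90%) were lower, dme-mir-34-3p by -2.27, dme-mir-13b-2-5p by -2.46 and dme-mir-14-5p by -2.70 (log2, edgeR); DESeq2 gave 1 higher and 4 lower. At 1:10000, 15 arms (19.5%) differed, 6 higher (7.79%) and 9 lower (11.7%), and with DESeq2 4 and 3. At 1:100000, 9 arms (11.7%) differed, 5 higher (6.49%) and 4 lower (5.19%), where fewer counts remained. With set as a replicate block, 8 were higher and 13 lower. The comparisons share their 1:1 libraries. At 1:100000, dme-bantam-3p lay 1.66 ± 0.27 above 1:1 and dme-mir-2a-1-3p 2.44 ± 0.35 above (log2, SE; edgeR adjusted p = 0.000213 and 0.000145). dme-mir-2b-2-5p lay -3.88 ± 0.71 from 1:1 (edgeR adjusted p = 0.000652). Without set 2 the count was 3 higher and 1 lower, and without set 3 it was 3 higher and 2 lower.

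The evenness of the oxidised profile decreased along the series. The effective number of fly arms, the inverse of the summed squared shares after thinning each library to 273 fly counts, was 17.5 ± 1.7 at 1:1, 16.9 ± 1.4 at 1:10, 16.1 ± 1.0 at 1:100, 11.1 ± 2.8 at 1:1000, 9.62 ± 3.1 at 1:10000 and 8.36 ± 3.9 at 1:100000 (SD, n = 3 each). The slope was -2.07 arms per 10-fold dilution (two-sided permutation of ratios within sets, p = 1e-05, the smallest that 100000 permutations can give). Within sets it was -0.774, -2.51 and -2.91 (exact permutation p = 0.00833, 0.00556 and 0.00278). Thinning puts all libraries at the depth of the shallowest, and with no thinning the slope was -2.30. Without the oxidised 1:1000 libraries of sets 2 and 3 it was -2.02. Single libraries of sets 1, 2 and 3 had 12.8, 6.78 and 5.52 effective arms at 1:100000, against 16.0, 17.0 and 19.4 at 1:1.

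The profile also moved towards that of the untreated 1:1 libraries. The share of fly counts placed differently from the oxidised 1:1 libraries of the other sets was 10.2% ± 2.0 at 1:1, 12.6% ± 3.4 at 1:100, 24.1% ± 5.3 at 1:1000, 30.8% ± 10.4 at 1:10000 and 38.3% ± 11.9 at 1:100000. The distance from the untreated 1:1 libraries of the other sets was 24.1% ± 8.2 at 1:100000 and 43.9% ± 2.3 at 1:1. These distances were not thinned, and the part of low counts in them was not tested.

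**Figure D4:**
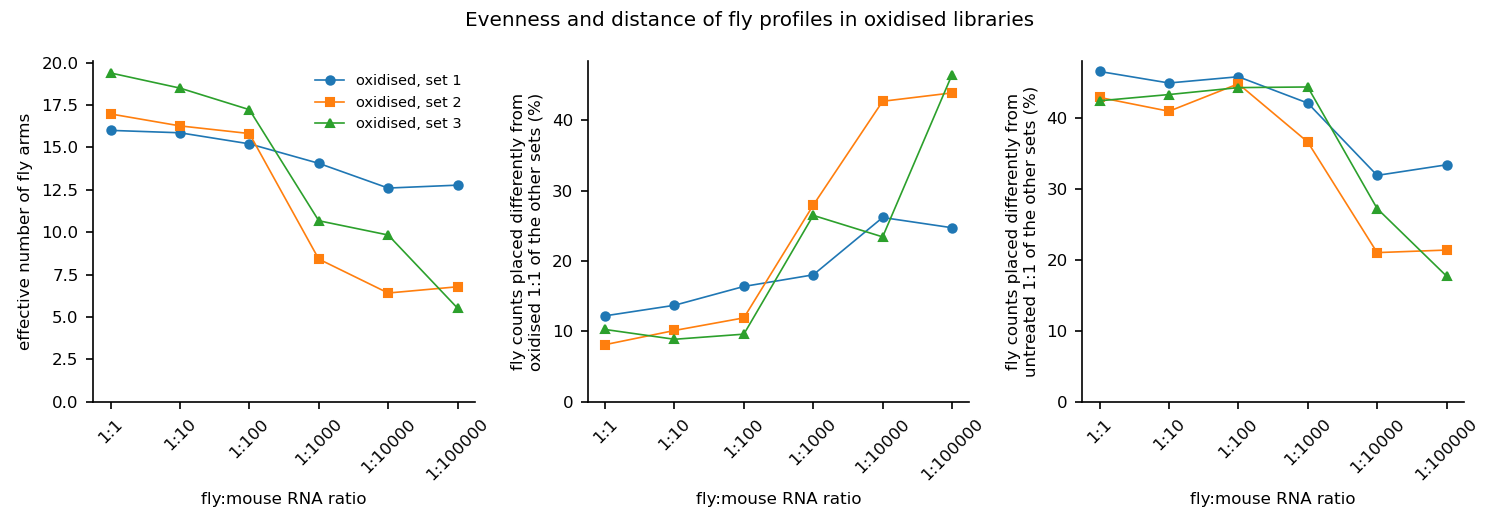
Effective number of fly arms after thinning to 273 fly counts (left), and percent of fly counts placed differently from the oxidised 1:1 (middle) and the untreated 1:1 (right) libraries of the other sets, per oxidised library against the fly to mouse ratio. All 3 sets drop in effective number, set 1 least, and all 3 lie closer to the untreated 1:1 profile at 1:100000 than at 1:1.

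Some of these trends differed from those in untreated libraries. Slopes in oxidised and untreated libraries were compared in 1 model over both treatments, and of 88 arms tested 18 (20.5%) differed, 8 with a higher slope in oxidised libraries (9.09%) and 10 with a lower one (11.4%). For dme-bantam-3p the slope was 0.36 in oxidised and -0.15 ± 0.057 in untreated libraries, each fitted alone. The difference in the joint model was 0.52 ± 0.074 (SE, edgeR adjusted p = 1.06e-06). The difference was 0.62 for dme-mir-2a-1-3p, 0.45 for dme-mir-275-3p, 0.39 for dme-mir-317-3p, 0.36 for dme-mir-276a-3p and 0.34 for dme-mir-33-3p. It was -0.69 for dme-mir-2a-1-5p, -0.53 for dme-mir-2b-2-5p, -0.44 for dme-mir-8-5p, -0.32 for dme-mir-995-3p and -0.28 for dme-mir-2a-2-3p. For other arms that fell, such as dme-bantam-5p, dme-mir-252-5p and dme-mir-34-3p, the difference was not called (edgeR adjusted p = 0.207, 0.494 and 0.217). The 10 lower arms include dme-mir-92a-3p, dme-mir-210-3p and dme-mir-263a-5p, which were not among those that fell in oxidised libraries. Without the 1:1000 libraries of sets 2 and 3, 13 arms were higher and 11 lower. Without the libraries at 1:100000, 3 were higher and 2 lower. Left-out sets gave 5 to 6 higher in each case, with 1 lower without set 1 and 0 lower without set 2.

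In untreated libraries alone, 5 of 66 arms (7.58%) gained share with dilution and 0 lost share (edgeR; 6 downward at an unadjusted p under 0.05, and 0 with DESeq2). They were dme-mir-124-3p, dme-mir-9a-5p, dme-mir-92a-3p, dme-mir-125-5p and dme-mir-210-3p, which carry names shared with mouse miRNAs. dme-mir-124-3p, a neuronal miRNA, averaged 23.4% of untreated fly counts at 1:100000, but had 5 counts in all 18 oxidised libraries together. None of the 67 entries of the list of tissue-restricted fly miRNAs passed the filter in oxidised libraries. That list held at most 0.203% of oxidised fly counts at 1:100000 and 0.0635% ± 0.010 at 1:1, against a mean of 33.1% (1.37% to 51.4%) of untreated fly counts at 1:100000. The S2 cell list held a mean of 65.9% (48.6% to 96.3%) of untreated fly counts there, against 99.1% at 1:1. Untreated slopes of S2 cell arms are thus shares of a changing total. Its part in the slope differences above was not tested.

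Mammalian miRNAs mostly carry free 3′ ends, and few mouse entries gained share after oxidation. At the dilute end (1:1000 to 1:100000, where mouse RNA made up nearly all the input) 381 mouse entries were compared between oxidised and untreated libraries as shares of mouse counts. With TMM scaling 241 (63.3%) differed, 10 (2.62%) higher and 231 (60.6%) lower in oxidised libraries, with a median log2 difference of -1.26 over all 381. Without TMM factors 15 were higher and 35 lower, with a median of -0.10. The number of lower entries thus depends on the scaling and is not read further. The differences below were fitted with TMM scaling and are read relative to that median.

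mmu-mir-184-3p stood far above the rest. It averaged 2.82% of mouse counts in the 9 dilute oxidised libraries (0.462% to 4.47%) and 0.00596% in the 9 dilute untreated libraries (0.00151% to 0.0189%). The log2 difference was 7.62 ± 0.65 (SE; edgeR adjusted p = 6.17e-12). Within sets, shares without TMM factors (0.5 added to each count) differed by 7.83, 9.12 and 10.2. It was higher in the oxidised library of all 18 pairs of the same ratio and set. From 1:1 to 1:100 the difference was 7.59 ± 0.65, in a contrast where 156 of the 381 entries (40.9%) differed, 13 higher (3.41%) and 143 lower (37.5%). The 2 values differed by -0.03 with an interval of -1.37 to 1.31, and both rest on TMM scaling. In plain shares of mouse counts the fold gap was uneven across ratios. It was smaller at 1:1 (88.0% ± 3.3 oxidised, 7.66% ± 3.1 untreated) than at 1:100 (42.7% ± 17.3 and 0.0858% ± 0.029).

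Its share of mouse counts in oxidised libraries was 91.6%, 87.3% and 85.1% at 1:1, 22.8%, 53.6% and 51.7% at 1:100, 3.53%, 4.44% and 3.61% at 1:1000, and 0.609%, 0.462% and 3.06% at 1:100000. It was the only one of 155 tested mouse entries (0.645%) whose share of mouse counts fell with dilution, at -1.39 ± 0.14 per 10-fold (SE; edgeR adjusted p = 2.05e-10), and it was called lower in every alternative run. The 134 entries (86.5%) that gained share did so in totals that mmu-mir-184-3p dominated at 1:1. With TMM factors, or with that entry left out of the totals, 0 gained share and 4 lost it, namely mmu-mir-184-3p, mmu-mir-33-5p and both copies of mmu-mir-7a-5p.

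Set against fly counts, mmu-mir-184-3p stayed level. Per 1000 fly counts, oxidised libraries held 116, 120 and 86.6 at 1:1, 107, 127 and 126 at 1:10, 143, 114 and 128 at 1:100, 117, 25.7 and 22.4 at 1:1000, 120, 116 and 57.1 at 1:10000, and 116, 93.5 and 118 at 1:100000. The low pair at 1:1000 came from the libraries of sets 2 and 3 that stood apart above. Untreated libraries held 141, 370 and 320 at 1:100000 and 100, 118 and 97.2 at 1:1. In the same oxidised libraries mmu-mir-290a-5p, of the ES cell cluster, averaged 0.483, 1.19, 9.07, 56.8, 107 and 656 per 1000 fly counts from 1:1 to 1:100000, and mmu-mir-7a-1-5p averaged 0.577, 0.607, 0.971, 3.21, 8.91 and 28.1. The fly entry of the same name, dme-mir-184-3p, had 732 counts in all oxidised libraries, against 255438 for the mouse entry. How reads matching both species were assigned is not given in the sources used here, and the part of fly RNA in the mouse entry was not tested.

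**Figure D5:**
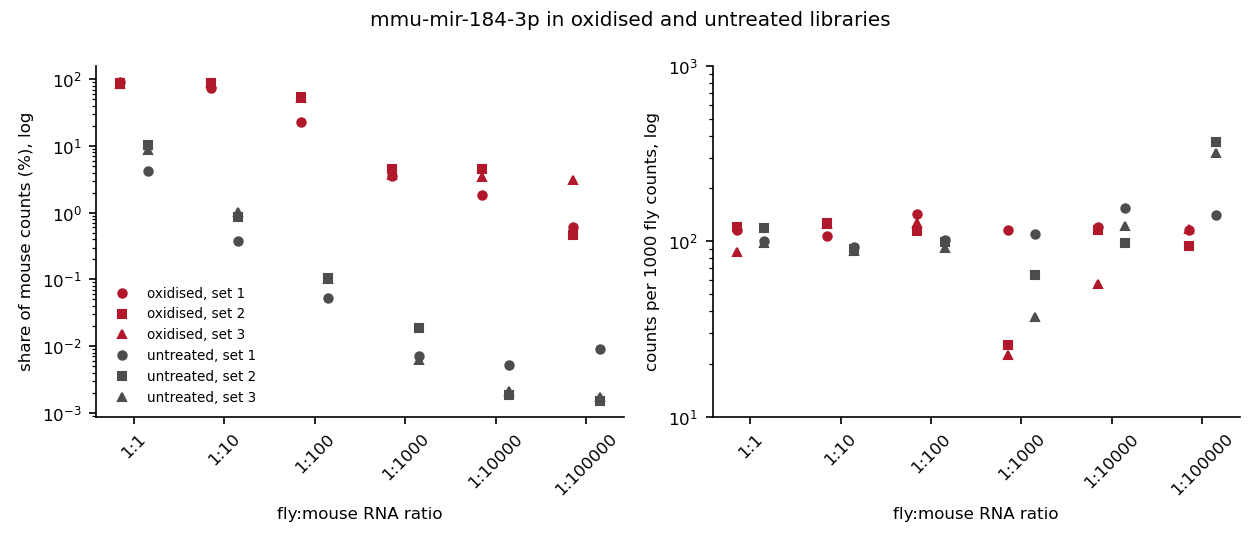
mmu-mir-184-3p as a share of mouse counts (left, percent) and per 1000 fly counts (right) in each oxidised and untreated library against the fly to mouse ratio, both on log axes. The oxidised share lies above the untreated one at every ratio, and per 1000 fly counts the oxidised libraries stay between 22.4 and 143.

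The next 2 entries are copies of mmu-let-7a-5p, of the let-7 family, which is low in ES cells and high in differentiated cells. mmu-let-7a-1-5p was 6.25 ± 0.88 higher in dilute oxidised libraries (log2, SE) and higher in 17 of 18 pairs. Of its 2762 oxidised dilute counts, 701 and 1984.5 came from set 2 at 1:1000 and 1:10000, so the level rests largely on 2 libraries. Within sets, on that same scale without TMM factors, the difference was 5.50, 6.68 and 3.69. The copies could share reads, and they are counted as 1 observation. Of 10 tested let-7 family entries, only these copies were higher. The median of the 10 was -1.33 with TMM scaling, against -1.26 over all 381 mouse entries.

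The other 7 higher entries rested on few counts. mmu-mir-6236-5p was 4.54 ± 0.69 higher with 213 oxidised dilute counts, of which 119.2 came from set 1 at 1:100000. mmu-mir-29a-3p was 2.31 ± 0.58 higher with 194 counts. mmu-mir-146a-5p, an immune-related miRNA, was 4.35 ± 0.67 higher with 43 counts. mmu-mir-204-5p was 3.84 ± 0.99 higher with 52 counts, but 34 of these came from 1 library, set 3 at 1:10000, without which the difference was -0.14. mmu-mir-126b-5p, mmu-mir-6240-3p and mmu-mir-6240-5p had 15, 16 and 6 counts.

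The bulk of mouse counts in dilute oxidised libraries was still the ES cell profile. mmu-mir-294-3p averaged 14.3% of mouse counts in oxidised and 17.2% in untreated dilute libraries, and mmu-mir-291a-3p 13.4% and 13.05%. The mir-290 cluster together held 64.7% of mouse counts in oxidised 1:100000 libraries, against 73.7% in untreated ones. With mmu-mir-184-3p left out of the total, it held 64.6% ± 3.0 in oxidised and 74.7% ± 2.6 in untreated libraries even at 1:1. Of its 14 tested entries 0 were higher and 13 lower with TMM scaling, with a median of -1.30 against -1.26 over all entries. No entry of this cluster was among those that gained share after oxidation.

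Mouse entries with known fly relatives were examined as a list of 107. Of 46 tested at the dilute end with TMM scaling, 3 were higher, mmu-mir-184-3p and the 2 let-7a entries, and 31 lower. Over all 381 entries 2.62% were higher and 60.6% lower, and the lower count depends on the scaling and is not read. Testing whether the effect of oxidation was larger at 1:1 to 1:100 than at 1:1000 to 1:100000 gave 5 higher entries of 381 (1.31%) and 0 lower (edgeR; 8 downward at an unadjusted p under 0.05, and 2 with DESeq2). Of the 5, 4 belong to the list. The difference was 2.62 for mmu-mir-7a-1-5p and 2.63 for its copy mmu-mir-7a-2-5p, named like the fly mir-7 (edgeR adjusted p = 7.61e-05 each). It was 3.30 for mmu-mir-125b-1-5p and 3.29 for its copy mmu-mir-125b-2-5p, named like the fly mir-125 (edgeR adjusted p = 0.0267 each). mmu-mir-7a-1-5p averaged 0.277% ± 0.19 of mouse counts in oxidised and 0.182% ± 0.039 in untreated libraries at 1:100000. At 1:1 it averaged 0.475% ± 0.055 in oxidised and 0.241% ± 0.049 in untreated libraries. Without TMM factors only mmu-mir-329-5p, the fifth, which had 2 dilute oxidised counts, was higher, and 195 entries were lower.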

How the data were processed

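Small RNA libraries of 18 oxidised and 18 untreated fly and mouse RNA mixtures were analysed from deposited tables of estimated counts per miRNA arm, 1 per library. The authors' deposited values are not all whole numbers (80.0% to 98.1% whole with no tolerance), so they were treated as estimated (expected) counts and rounded for count tests. The submitters' processing notes name the builds dm3 and mm10, HTSeq 0.6.1p1 and cutadapt 1.2.1; for their roles, the aligner and the sharing of reads between entries, nothing is given in the sources used here. Set 1 files listed 1781 of 2038 entries, and the 257 missing ones (at most 6 counts elsewhere) were set to 0. Oxidised libraries held 3654 to 1312983.5 counts and 275 to 1165619.3 fly counts. All 630 pairs of libraries differed beyond sampling noise (smallest chi-square per degree of freedom 3.96).

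Fly shares were tested with edgeR 4.0.16 (R 4.3.3), quasi-likelihood with summed fly counts as library size; mouse shares used summed mouse counts, with TMM factors between treatments. The filter was filterByExpr (minimum count 10, minimum total 15), adjustment Benjamini-Hochberg at 0.05, and DESeq2 1.42.0 an alternative. Shares, distances and permutation tests (100000, or exact within a set) used Python 3.11.15, numpy 2.4.6, scipy 1.17.1 and pandas 2.3.3; thinning took the mean of 100 draws of 273 fly counts. The scripts were tested on simulated counts. Named fly arms were the 12 most abundant at oxidised 1:1, and the 8 steepest rises and falls among called arms with a mean share of 0.1% or more; named mouse entries were the 8 most abundant and the 8 largest rises at the dilute end with 10 or more counts, and falls of the mouse trend, with list members as examples. Other names were chosen after their values were seen. The members and lists were chosen with earlier results of these data known. By the labels set 1 differs from sets 2 and 3 in RNA amount and sequencer, so fits with set as a replicate block were also made; over 45 pairs of oxidised libraries with the same number the median correlation of deviations was 0.11 (-0.29 to 0.831), 23 were above 0.1, and the same number correlated best in 27. Within-set mouse differences are log2 shares with 0.5 added to each count. Alternatives were other scaling, filters, tools, left-out libraries and a replicate block. miRNA sequences and genomes were not used here. The design text names 2 replicates, and 3 sets are analysed.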

Additional observations from a re-analysis of the deposited data

Results flagged for a closer look

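The results below were picked out because an effect differed between 2 kinds of library by a test of the difference itself. Untreated fly shares refer to the changing total described above. Among fly arms, the change of share per 10-fold dilution (log2, oxidised minus untreated) differed for 11 of the named arms. It was 0.62 for dme-mir-2a-1-3p, 0.52 for dme-bantam-3p, 0.45 for dme-mir-275-3p, 0.39 for dme-mir-317-3p, 0.36 for dme-mir-276a-3p and 0.34 for dme-mir-33-3p. It was -0.69 for dme-mir-2a-1-5p, -0.53 for dme-mir-2b-2-5p, -0.44 for dme-mir-8-5p, -0.32 for dme-mir-995-3p and -0.28 for dme-mir-2a-2-3p.

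Among mouse entries, the effect of oxidation (log2, oxidised over untreated) at 1:1 to 1:100 exceeded that at 1:1000 to 1:100000 by 2.62 for mmu-mir-7a-1-5p, 2.63 for mmu-mir-7a-2-5p, 3.30 for mmu-mir-125b-1-5p and 3.29 for mmu-mir-125b-2-5p. These values were fitted with TMM scaling, and without TMM factors none of these entries was called higher. The fitted value of 8.56 for mmu-mir-329-5p is no measure of size, since the entry had 2 counts in dilute oxidised libraries and was at 0 in 7 of those 9. mmu-mir-125b-1-5p held 0.0199% ± 0.029, 0.0115% ± 0.012 and 0.0233% ± 0.015 of oxidised mouse counts at 1:1000, 1:10000 and 1:100000, against 0.0139% ± 0.0043, 0.0134% ± 0.0045 and 0.0136% ± 0.0023 of untreated ones (SD, n = 3 each). These dilute oxidised values rested on 2.5, 3 and 13 summed counts. At 1:1, 1:10 and 1:100 mmu-mir-125b-1-5p held 0.0135% ± 0.019, 0.0160% ± 0.012 and 0.0596% ± 0.058 of oxidised mouse counts. The untreated values there were 0.0154% ± 0.0066, 0.0148% ± 0.0056 and 0.0178% ± 0.0073, so plain shares did not show a gap of that size. Groups of 3 libraries were not tested for single libraries far from the others.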

How the results depend on the processing

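Counts below are of arms or entries called higher and lower. The fly trend (9 and 16) gave 14 and 8 with no filter on low counts, 3 and 5 without the 1:100000 libraries, and 16 higher without the oxidised 1:1000 libraries of sets 2 and 3, which was chosen after seeing the data, as were the setting without libraries under 1000 fly counts and the totals without mmu-mir-184-3p. Leaving out replicates or single libraries gave 4 to 12 and 2 to 22. The 1:100000 against 1:1 comparison (5 and 4) gave 8 lower with TMM factors, 12 lower with DESeq2, 9 and 8 with no filter, 9 and 15 without libraries under 1000 fly counts, and 3 to 10 and 1 to 14 with libraries left out. The oxidised minus untreated trend (8 and 10) gave 19 lower with DESeq2, 3 and 2 without the 1:100000 libraries, 13 higher without the 1:1000 libraries of sets 2 and 3, and 5 to 9 and 0 to 11 with libraries left out. The dilute mouse contrast (10 and 231) gave 35 lower without TMM factors, 113 with summed counts of both species, 27 with totals without mmu-mir-184-3p, and 6 to 12 and 107 to 247 with libraries left out. The difference between rich and dilute mixtures (5 and 0) gave 1 and 195 without TMM factors, 0 and 287 with counts of both species, 2 lower with DESeq2, 11 and 2 with no filter, and 0 to 8 and 0 to 1 with libraries left out. The mouse trend (134 and 1) gave 0 and 4 with TMM factors and with totals without mmu-mir-184-3p, and 72 to 151 and 1 with libraries left out. The cause of these shifts was not tested. The slope of the effective number (-2.07) was -2.30 with no thinning, -1.97 with Shannon entropy, -2.15 without the 1:100000 libraries, and -2.71 to -1.64 with a set left out.

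Some entries changed sign. In the dilute mouse contrast, mmu-mir-291a-3p was 0.034 and mmu-mir-293-3p 0.016 without TMM factors, and 0.074 and 0.057 with totals without mmu-mir-184-3p; mmu-mir-204-5p was -0.143 to 4.72 with libraries left out, the lowest without the oxidised 1:10000 library of set 3. In the rich minus dilute difference without TMM factors, mmu-mir-294-3p was -2.051, mmu-mir-291a-3p -2.108, mmu-mir-295-3p -1.925, mmu-mir-292a-3p -1.94, mmu-mir-292a-5p -2.05 and mmu-mir-290a-5p -1.70. With counts of both species the same 6 were -3.945, -4.024, -3.823, -3.864, -3.927 and -3.613. In the mouse trend, mmu-mir-295-3p was -0.038, mmu-mir-292a-3p -0.001 and mmu-mir-293-3p -0.13 with TMM factors, and -0.064, -0.027 and -0.155 with totals without mmu-mir-184-3p, where mmu-mir-290a-5p was -0.005.

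With set as a replicate block the 1:100000 against 1:1 comparison gave 8 higher and 13 lower and the fly trend 8 and 18, and no other count moved by over 1.5 times. Among named arms the block ended the rise of dme-mir-275-3p in the trend, brought dme-mir-252-5p past the threshold in the oxidised minus untreated trend (-0.45), and in the 1:100000 against 1:1 comparison brought 9 past it, dme-mir-33-5p (-1.66) among them. Depth limits the last dilutions most: in the shallowest library (275 fly counts), 5 of the 9 arms that rose and 5 of the 16 that fell had 3 or more counts.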
